A study of Mus musculus with 4 samples.

Results

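The genes described here are the 10 that write, copy, protect and remove DNA methylation in the mouse: the methyltransferase genes Dnmt1, Dnmt3a and Dnmt3b, the cofactor gene Dnmt3l, Uhrf1, the dioxygenase genes Tet1, Tet2 and Tet3, and the imprint protection genes Zfp57 and Trim28. They were taken by symbol from the 54146 mouse genes of the deposited table, and all 10 passed the low-count filter that left 16789 tested genes. Nascent RNA labelled with 4-thiouridine was sequenced (TT-seq, which reads ongoing transcription) from mouse embryonic stem (ES) cells in LIF and serum. The groups were 2 libraries labelled Supt3 KO and 2 labelled Supt3 WT. Supt3 encodes a subunit of the coactivator complex SAGA. The labels describe neither the mutant allele, the parental line, the number of clones nor the cultures behind each library, and the p-values therefore rest on the spread between libraries whose separate origin is not stated and may be technical.

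DNA methylation sits mainly on the cytosine of CG pairs. DNMT3A and DNMT3B place it on unmethylated DNA with the help of the catalytically inactive DNMT3L. DNMT1 copies it onto the new strand after replication, and UHRF1 brings DNMT1 to the hemimethylated sites. The TET enzymes oxidise methylcytosine and so open the way to its removal. ZFP57 binds the methylated copy of imprint control regions and recruits TRIM28, a scaffold for histone and DNA methylation, so that parental imprints outlast the loss of methylation in the early embryo. Mouse ES cells carry all of these activities, and DNMT3A is known there mostly as a short isoform that starts inside the gene.

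The promoters of both genes that changed are shown, together with that of Tet2, whose neighbouring antisense transcript fell. Each is a RefSeq window on GRCm38.p6 (mm10) of 250 bases before and 50 bases after an annotated start, written on the gene's strand with CG pairs in capitals. Dnmt3a has an upstream start at chr12:3806730-3807029 and an internal one at chr12:3891494-3891793, both on the plus strand. A further Dnmt3a window, chr12:3806910-3807209 with 47 CG pairs, overlaps the upstream one and is not shown. The Tet3 window is chr6:83441629-83441928 and the Tet2 window chr3:133544341-133544640, both on the minus strand. The Tet3 start of this window lies 17.4 kb inside the deposited span of the gene.
Dnmt3a upstream: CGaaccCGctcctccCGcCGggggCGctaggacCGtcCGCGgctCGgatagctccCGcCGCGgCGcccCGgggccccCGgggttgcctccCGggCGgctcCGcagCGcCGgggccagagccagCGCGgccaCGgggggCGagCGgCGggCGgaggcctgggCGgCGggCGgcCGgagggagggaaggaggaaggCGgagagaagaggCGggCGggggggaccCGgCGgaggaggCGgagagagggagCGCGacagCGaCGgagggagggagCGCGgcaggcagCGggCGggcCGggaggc
Dnmt3a internal: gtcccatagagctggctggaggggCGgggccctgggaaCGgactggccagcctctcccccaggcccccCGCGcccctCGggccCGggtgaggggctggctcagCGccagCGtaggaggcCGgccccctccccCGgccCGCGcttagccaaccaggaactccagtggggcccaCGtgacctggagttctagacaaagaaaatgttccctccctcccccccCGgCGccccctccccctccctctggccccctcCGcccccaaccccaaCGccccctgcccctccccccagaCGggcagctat
Tet3: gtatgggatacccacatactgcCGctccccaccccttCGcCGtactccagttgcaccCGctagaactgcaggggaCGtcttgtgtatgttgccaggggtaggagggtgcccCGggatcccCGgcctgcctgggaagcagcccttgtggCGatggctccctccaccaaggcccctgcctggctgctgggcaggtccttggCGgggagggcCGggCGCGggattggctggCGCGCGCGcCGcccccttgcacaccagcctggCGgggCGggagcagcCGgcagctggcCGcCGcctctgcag
Tet2: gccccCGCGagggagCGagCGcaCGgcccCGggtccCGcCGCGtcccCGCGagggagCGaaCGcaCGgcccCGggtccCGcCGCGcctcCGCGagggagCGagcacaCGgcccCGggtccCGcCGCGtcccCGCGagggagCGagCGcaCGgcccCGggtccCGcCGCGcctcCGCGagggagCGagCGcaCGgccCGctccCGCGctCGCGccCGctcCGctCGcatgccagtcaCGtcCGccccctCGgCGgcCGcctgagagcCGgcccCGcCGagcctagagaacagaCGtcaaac

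The upstream Dnmt3a window held 46 CG pairs and the Tet2 window 57, against a median of 7 over 32841 promoter windows of 300 bases. The internal Dnmt3a window held 18 and the Tet3 window 22. All 10 genes matched a RefSeq window, 19 windows in all, with a median of 17 CG pairs. The poorest was the most upstream window of Dnmt1, with 2, while the others of Dnmt1 held 33 and 12. All windows of Dnmt3l (6, 4 and 3) were below the median of 7 over all windows. Of the Zfp57 windows, those with 6 and 4 were below it and the one with 9 was above it. TGCCGC, the sequence that ZFP57 binds when methylated, was searched on both strands. It was found in 4 of the 19 windows, among them the upstream Dnmt3a window and the Tet3 window, and in 11.6% of all windows. CGCG was in 57.9% of the 19 windows and 38.0% of all. CCGCCC, the core of an SP1 site, was in 68.4% and 35.7%, and the E-box CACGTG in 10.5% and 7.15%. A TGCCGC match can share letters with a CCGCCC or a CGCG match, and windows of alternative starts of a gene can overlap each other.

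The mouse gene counts summed to 13.1 M and 18.4 M in KO replicates 1 and 2, and to 13.5 M and 19.4 M in WT replicates 1 and 2. Sums for the S. pombe spike-in were 4.84 M and 3.79 M in KO and 4.16 M and 3.46 M in WT. The lowest count of any of the 10 genes in any library was 730, where counting error alone is 3.70%. Levels are in CPM, the usual depth-scaled count unit, with TMM factors (trimmed means of log ratios between libraries), and are thus relative to the bulk of nascent RNA. Supt3 stood at 123 and 140 CPM in KO and 148 and 159 CPM in WT (log2 fold change -0.22 ± 0.10 SE, edgeR adjusted p = 0.232), so its count does not check the genotype labels. Leaving out KO replicate 2 gave -0.31, in a fit with 1 KO library. Over all tested genes 4.05% were called higher and 4.02% lower in KO. Of 7 tested ES cell markers, Nanog and Fgf4 fell and none rose, and the list summed to 1192 and 1510 CPM in KO against 1862 and 1917 CPM in WT. Much of that sum was Esrrb (242 and 427 CPM in KO, 543 and 612 in WT) and Zfp42 (272 and 401 in KO, 487 and 548 in WT), which were not called. Pou5f1 (log2 fold change 0.12), Utf1 (-0.03) and Sall4 (-0.23) were not called either. Sox2 is listed at 0, and it lies inside the host gene Sox2ot on the same strand. Of 10 primitive endoderm markers 8 rose and none fell, with a sum of 976 and 1374 CPM in KO and 465 and 563 CPM in WT. Of 9 tested trophoblast markers 5 rose and none fell (sum 103 and 120 CPM in KO, 78.1 and 69.6 CPM in WT). These were Cdx2, Gata3, Krt7, Krt8 and Krt18, while Tfap2c had 28.3 and 39.9 CPM in KO and 48.0 and 44.6 CPM in WT (not called) and Eomes 4.38 and 3.09 CPM in KO and 3.37 and 3.29 CPM in WT (not called). The rise of the trophoblast sum lay mainly in Krt8 and Krt18, and it is not read as a rise across the list. Krt8 had 22.55 and 27.49 CPM in KO and 8.21 and 6.01 CPM in WT. Krt18 had 32.49 and 36.02 CPM in KO and 10.99 and 9.31 CPM in WT. DESeq2 called 2 of the 9, as did edgeR without WT replicate 2, and edgeR called 3 without WT replicate 1. Cdx2, a defining trophoblast gene, was near the detection limit at 1.48 and 0.898 CPM in KO and 0.293 and 0.209 CPM in WT, and Gata4, a defining primitive endoderm gene, rose with 51.8 and 77.7 CPM in KO and 24.1 and 31.7 CPM in WT. Of 9 tested 2-cell-like markers 4 rose and none fell (sum 60.8 and 39.4 CPM in KO, 27.8 and 18.2 CPM in WT), but only 1 was called without WT replicate 2. Of 6 tested fibroblast markers edgeR, DESeq2 and limma voom called 0, and 2 had an unadjusted edgeR p below 0.05. In bulk libraries a change in the share of a cell type and a change per cell cannot be told apart, and the part of these markers in the results below was not tested.

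Relative to the bulk of nascent RNA, Dnmt3a fell and Tet3 rose in KO, and the other 8 genes did not pass the test. The calls are 2 of 10 at an adjusted p under 0.05 in edgeR's quasi-likelihood test, beside 8.07% of all tested genes. Of these calls 1 was higher in KO, beside 4.05% of all genes, and 1 lower, beside 4.02%. No test of that share was made, and nothing is read from it about the 10 genes as a group. The median log2 fold change of the 10 was -0.12, and that of all tested genes was 0.01. In 5 of the 10 genes the KO and WT libraries did not overlap (4 lower and 1 higher in KO), which was so for 52.7% of all tested genes (26% lower and 26.7% higher).

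**Figure D1:**
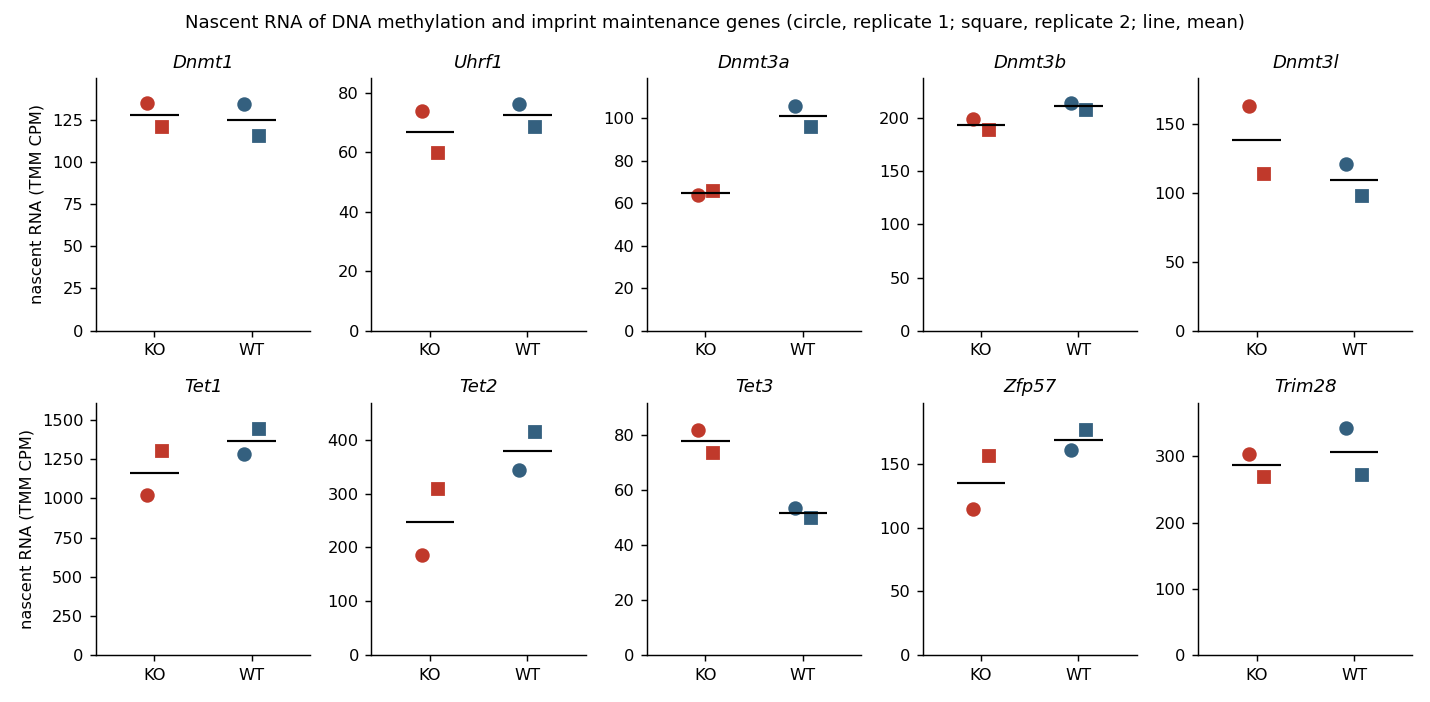
Nascent RNA of each gene in TMM CPM (vertical axis, from 0) in the KO and WT libraries; circles are replicate 1, squares replicate 2 and lines the mean. The Dnmt3a libraries at 64.0 and 65.6 CPM in KO lie below 106 and 96.0 CPM in WT, and the Tet3 libraries at 81.7 and 73.4 CPM in KO lie above 53.5 and 49.7 CPM in WT.

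Among the genes for new methylation, Dnmt3a (ENSMUSG00000020661, chromosome 12, 3806007 to 3914443, plus strand) had 64.0 and 65.6 CPM in KO, against 106 and 96.0 CPM in WT. Both KO libraries were below both WT libraries, by more than the gap within either genotype. The means were 64.8 ± 1.11 CPM in KO and 101 ± 6.95 CPM in WT (SD, n = 2 each), a log2 fold change of -0.64 ± 0.09 (SE, edgeR adjusted p = 0.00545), or 0.643 of the WT level. The log2 fold change was -0.71 to -0.58 when each library was left out in turn. Each such fit leaves 1 library in a genotype and takes the spread from the other pair. Calls in such fits are therefore weak evidence, here and below. The call was kept in DESeq2 (adjusted p = 0.000216) and limma voom (adjusted p = 0.00582), which called 6.99% and 8.06% of all genes. A count over the whole gene holds transcripts from the upstream and the internal start together, so the level of the short isoform is not separated. The antisense gene Dnmt3aos, inside Dnmt3a, had 1 and 0 counts in KO and 0 and 0 in WT.

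Dnmt3b (ENSMUSG00000027478, chromosome 2, 153649450 to 153687730, plus strand), the second methyltransferase for new sites, had 199 and 189 CPM in KO and 215 and 208 CPM in WT. The groups did not overlap, yet the difference was small and not called (log2 fold change -0.12 ± 0.09, adjusted p = 0.481). The counts of Dnmt3a per Dnmt3b count, which no library scaling changes, were 0.321 and 0.347 in KO, against 0.493 and 0.462 in WT. This ratio was chosen after its values were seen and is given as a description.

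Dnmt3l (ENSMUSG00000000730, chromosome 10, 78041947 to 78063622, plus strand), the cofactor of DNMT3A and DNMT3B, had 163 and 114 CPM in KO and 121 and 97.9 CPM in WT. The groups overlapped, and KO replicate 1 stood above the other 3 libraries. The log2 fold change was 0.34 ± 0.17 (adjusted p = 0.274), which was 0.05 without KO replicate 1 and 0.58 without KO replicate 2. Its start overlaps Aire on the other strand, which had 239 and 248 counts in KO and 176 and 303 in WT, with no call (log2 fold change 0.13 ± 0.17, adjusted p = 0.729).

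The genes that copy existing methylation were not called. Dnmt1 (ENSMUSG00000004099, chromosome 9, 20907209 to 20959888, minus strand), the maintenance methyltransferase, had 135 and 121 CPM in KO and 134 and 115 CPM in WT. Its libraries interleaved, with a log2 fold change of 0.03 ± 0.11 (adjusted p = 0.890). Uhrf1 (ENSMUSG00000001228, chromosome 17, 56303321 to 56323486, plus strand), which recruits DNMT1, had 74.0 and 59.8 CPM in KO and 76.3 and 68.6 CPM in WT. These overlapped too, with a log2 fold change of -0.12 ± 0.12 (adjusted p = 0.623). Leaving out 1 library turned the sign of both, to -0.07 at the lowest for Dnmt1 and to 0.03 at the highest for Uhrf1.

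The TET genes differed from each other. Tet3 (ENSMUSG00000034832, chromosome 6, 83362373 to 83459084, minus strand), best known for oxidising methylation in the zygote, had 81.7 and 73.4 CPM in KO and 53.5 and 49.7 CPM in WT. Both KO libraries lay well above both WT libraries. Means were 77.6 ± 5.82 CPM in KO and 51.6 ± 2.71 CPM in WT (SD, n = 2 each), and the log2 fold change was 0.59 ± 0.10 (adjusted p = 0.00980). Without single libraries it ranged from 0.51 to 0.66, with an adjusted p of 0.0457 at the highest, without WT replicate 2. DESeq2 and limma voom called it as well. The opposite-strand gene B230319C09Rik inside Tet3 had 1 and 2 counts in KO and 1 and 5 in WT.

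Tet2 (ENSMUSG00000040943, chromosome 3, 133463679 to 133545139, minus strand), one of the main TET genes of ES cells, had 187 and 308 CPM in KO and 343 and 415 CPM in WT. The groups did not overlap, and KO replicate 1 was far below the other 3 libraries. The log2 fold change of -0.62 ± 0.21 was close in size to that of Dnmt3a but was not called (adjusted p = 0.114). It was -0.31 without KO replicate 1. The value was -1.02 without KO replicate 2 and -0.75 without WT replicate 1. With a KO library left out, the gap between the KO libraries does not enter the fit.

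The antisense gene Gm42567 starts inside the first bases of Tet2, overlaps it by 43 bases and runs the other way. It had 34 and 52 counts in KO and 82 and 142 in WT, or 2.52 and 2.92 CPM in KO against 6.01 and 7.42 CPM in WT. It fell, with a log2 fold change of -1.30 ± 0.23 (adjusted p = 0.0124), but leaving out WT replicate 2 ended the call (adjusted p = 0.0605). The Tet2 start of the window printed above lies 0.749 kb inside the deposited span, so that the window does not reach these 43 bases.

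Tet1 (ENSMUSG00000047146, chromosome 10, 62804570 to 62908996, minus strand) was the highest of the 10 genes in CPM, at 1024 and 1303 in KO and 1285 and 1444 in WT. It is the main TET enzyme of mouse ES cells. The groups overlapped, and the log2 fold change was -0.23 ± 0.15 (adjusted p = 0.429), which was -0.072 without KO replicate 1 and -0.41 without KO replicate 2, with no call in either. Per Tet1 count, Tet3 had 0.0798 and 0.0564 counts in KO and 0.0416 and 0.0344 in WT, a ratio chosen after its values were seen.

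Of the imprint protection pair, Zfp57 (ENSMUSG00000036036, chromosome 17, 37001163 to 37010635, plus strand) had 114 and 156 CPM in KO and 161 and 177 CPM in WT. The KO libraries were lower without overlap, but KO replicate 2 lay next to WT replicate 1. The log2 fold change was -0.32 ± 0.14 (adjusted p = 0.223), from -0.57 without KO replicate 2 to -0.12 without KO replicate 1. Trim28 (ENSMUSG00000005566, chromosome 7, 12999114 to 13031035, plus strand) had 304 and 269 CPM in KO and 343 and 272 CPM in WT. The groups overlapped, with a log2 fold change of -0.10 ± 0.13 (adjusted p = 0.710) that turned to 0.07 without WT replicate 1. Zbtb45 lies inside the deposited span of Trim28 on the other strand and was not called either (-0.15 ± 0.14, adjusted p = 0.584).

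**Figure D2:**
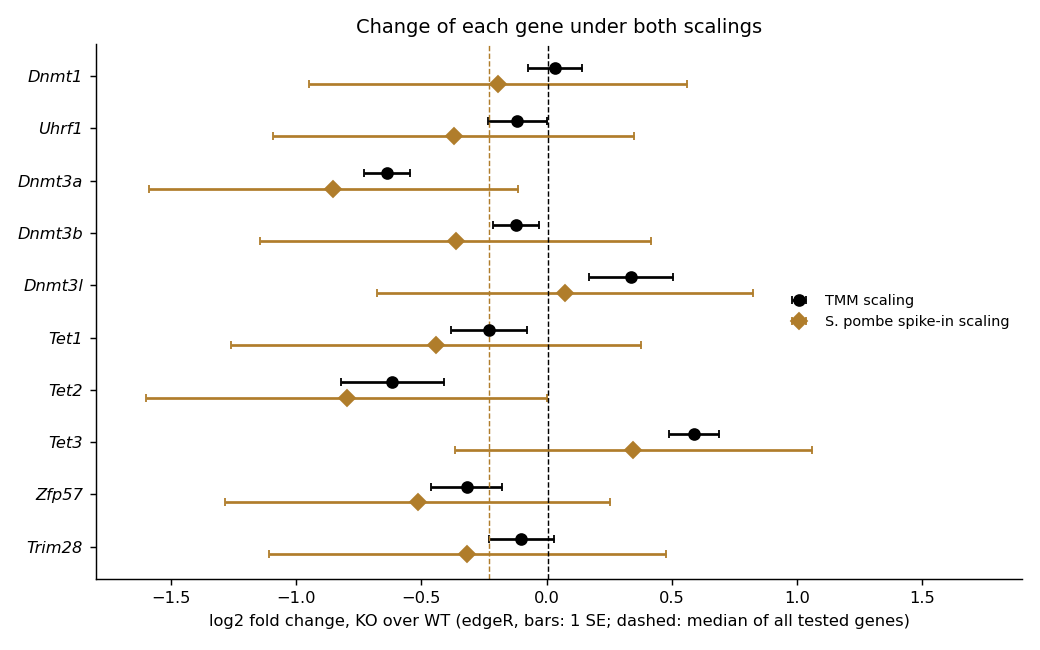
Log2 fold change of KO over WT (horizontal axis) for each gene from edgeR with TMM scaling (black circles) and with S. pombe spike-in scaling (brown diamonds); bars are 1 SE and dashed lines the median of all tested genes. Spike-in values lie lower by about the shift of all genes, and their errors, such as 0.74 for Dnmt3a, are several times those of the TMM fit, 0.09 for the same gene.

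The spike-in gives the change per S. pombe count rather than relative to other mouse genes. On that scale the median of all tested genes moved to -0.23, and 0.101% of genes were called (0.00596% higher and 0.0953% lower in KO). None of the 10 genes was called, and edgeR gave 0 of them an unadjusted p below 0.05; with TMM scaling 3 did, beside 22.9% of all tested genes. Dnmt3a had 0.178 and 0.309 counts per 1000 S. pombe counts in KO, against 0.347 and 0.530 in WT, so that the groups did not overlap but KO replicate 2 lay close to WT replicate 1. Its log2 fold change was -0.85 ± 0.74 (adjusted p = 1.000). Tet3 had 0.228 and 0.346 in KO against 0.176 and 0.274 in WT, and these overlapped (0.35 ± 0.71, adjusted p = 1.000). Mouse counts per S. pombe count were 2.71 and 4.86 in KO replicates 1 and 2, and 3.25 and 5.60 in WT. The spike-in fit did not pair libraries, so this gap between replicates is part of its SE. Set against the WT library of the same number, a pairing that the labels do not give, both KO libraries were lower for Dnmt3a and higher for Tet3. Single libraries moved the spike-in values of both genes. Dnmt3a ranged from -1.31 (without KO replicate 2) to -0.51 (without KO replicate 1), and Tet3 from 0.0099 (without KO replicate 2) to 0.70 (without WT replicate 2). In the authors' deposited table, which is scaled by the spike-in and shrunken, the log2 fold changes were -0.62 for Dnmt3a, -0.53 for Tet2 and 0.26 for Tet3, and 0 of the 10 genes had an adjusted p under 0.05, where 0.0271% of all genes with an adjusted p did, so nothing is read from that count.

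The gap between the 2 libraries of a genotype is described for the 10 genes. Replicate 2, the library with more counts in each genotype, was higher than replicate 1 in both genotypes for Tet1, Tet2 and Zfp57, and lower in both for 6 other genes. The share of all tested genes with the same sign in both genotypes was not counted, so nothing is read from these counts. Between the KO libraries the gap was widest for Tet2, at 0.72 on the log2 scale, and Tet2 had 0.27 between the WT libraries, where that of Trim28 was widest at -0.33. The Tet2 gap exceeded those of 96.9% of tested genes of at least 2 CPM in KO and of 80.4% in WT. Dnmt3l had the lowest value in KO, -0.52, and had -0.31 in WT. Dnmt3a, at 0.04 in KO and -0.14 in WT, and Tet3, at -0.15 in KO and -0.11 in WT, were among the steadier genes. Over all tested genes of at least 2 CPM, the median gap was -0.10 in KO and -0.10 in WT for spans under 10 kb, and 0.11 in KO and 0.03 in WT for spans over 100 kb. The part of gene length in these gaps was not tested.

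Between the pair of libraries with fewer counts (KO replicate 1 over WT replicate 1) and the pair with more, all 10 genes kept 1 direction. The share of all tested genes that did so was not counted, so nothing is read from this count. Some values were close to 0, such as 0.0063 and 0.065 for Dnmt1 and -0.17 and -0.014 for Trim28. Dnmt3a gave -0.73 and -0.55, Tet3 0.61 and 0.56, Tet2 -0.88 and -0.43, Zfp57 -0.50 and -0.18, and Dnmt3l 0.43 and 0.22. A batch term for these pairs called 6 of the 10 genes, where it called 25.7% of all genes tested. The 4 beyond Dnmt3a and Tet3 were Tet2 (adjusted p = 2.99e-18), Zfp57 (3.90e-05), Dnmt3l (7.02e-05) and Tet1 (0.0126). The pairs were defined from the same data and the fit has few residual degrees of freedom, so these p-values are weak evidence.

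**Figure D3:**
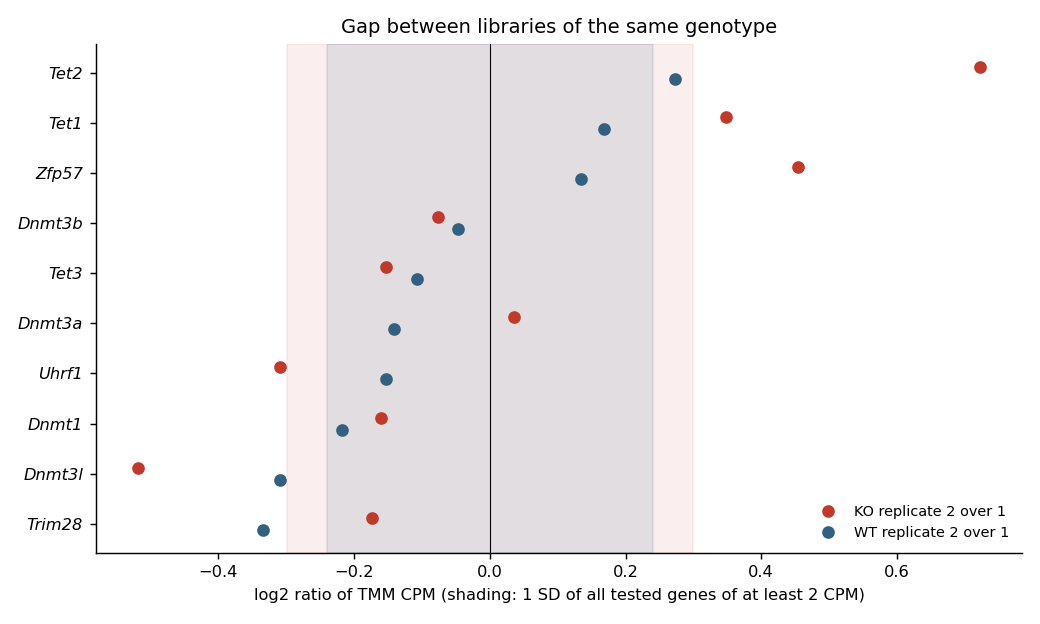
Log2 ratio of TMM CPM of replicate 2 over replicate 1 (horizontal axis) for each gene, in KO (red) and WT (blue), with shading for 1 SD of all tested genes of at least 2 CPM. Tet2 at 0.72 in KO lies farthest right and Dnmt3l at -0.52 in KO farthest left, while Dnmt3a and Tet3 lie near 0.

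To set levels of different genes side by side, CPM were divided by the RefSeq gene length, since the counts run over introns. By this length Trim28 was highest, at 41.6 ± 3.54 CPM per kb in KO and 44.6 ± 7.29 in WT (SD, n = 2 each). Zfp57 (14.1 ± 3.12 in KO, 17.7 in WT, at 16.8 and 18.5) and Tet1 (14.0 ± 2.38 in KO, 16.5 ± 1.36 in WT) came next and overlapped each other. Dnmt3l and Dnmt3b followed, at 6.50 ± 1.63 and 5.06 ± 0.19 CPM per kb in KO and at 5.14 ± 0.78 and 5.52 ± 0.13 in WT, and did not differ beyond their spread. Tet2 had 3.04 ± 1.05 in KO and 4.66 ± 0.62 in WT, Uhrf1 3.32 ± 0.50 in KO and 3.60 ± 0.27 in WT, and Dnmt1 2.43 ± 0.19 in KO and 2.37 ± 0.25 in WT. The lowest places were exchanged between the genotypes. In KO, Tet3 stood at 0.861 and 0.774 CPM per kb, above Dnmt3a at 0.567 and 0.581. In WT, Tet3 stood at 0.564 and 0.524, below Dnmt3a at 0.937 and 0.850. With the deposited span of 31.9 kb in place of the RefSeq length of 6.88 kb, Trim28 had 8.97 CPM per kb in KO and 9.62 in WT and ranked below Zfp57 (14.3 in KO, 17.8 in WT) and Tet1 (11.1 in KO, 13.1 in WT). That span begins well upstream of the RefSeq start, so the first place rests on the length used.

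The 10 genes lie on 8 chromosomes. The 10 tested genes on each side had medians between -0.12 beside Dnmt3b and 0.09 beside Tet3. Beside Tet3, 0 of 20 neighbours were called by edgeR. Beside Dnmt3a, which lies near the start of the chromosome, 2 of 19 were lower and 0 higher. These were Efr3b at position 2 (log2 fold change -1.01, adjusted p = 0.00485), a larger fall than that of Dnmt3a, and Adcy3 at position 4 (-0.49, adjusted p = 0.0397). A link between these falls was not tested. Beside Zfp57 and beside Tet2, 1 of 20 was higher and 1 lower. Of all tested genes 4.02% were called lower and 4.05% higher, and nothing is read from the neighbour counts.

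**Figure D4:**
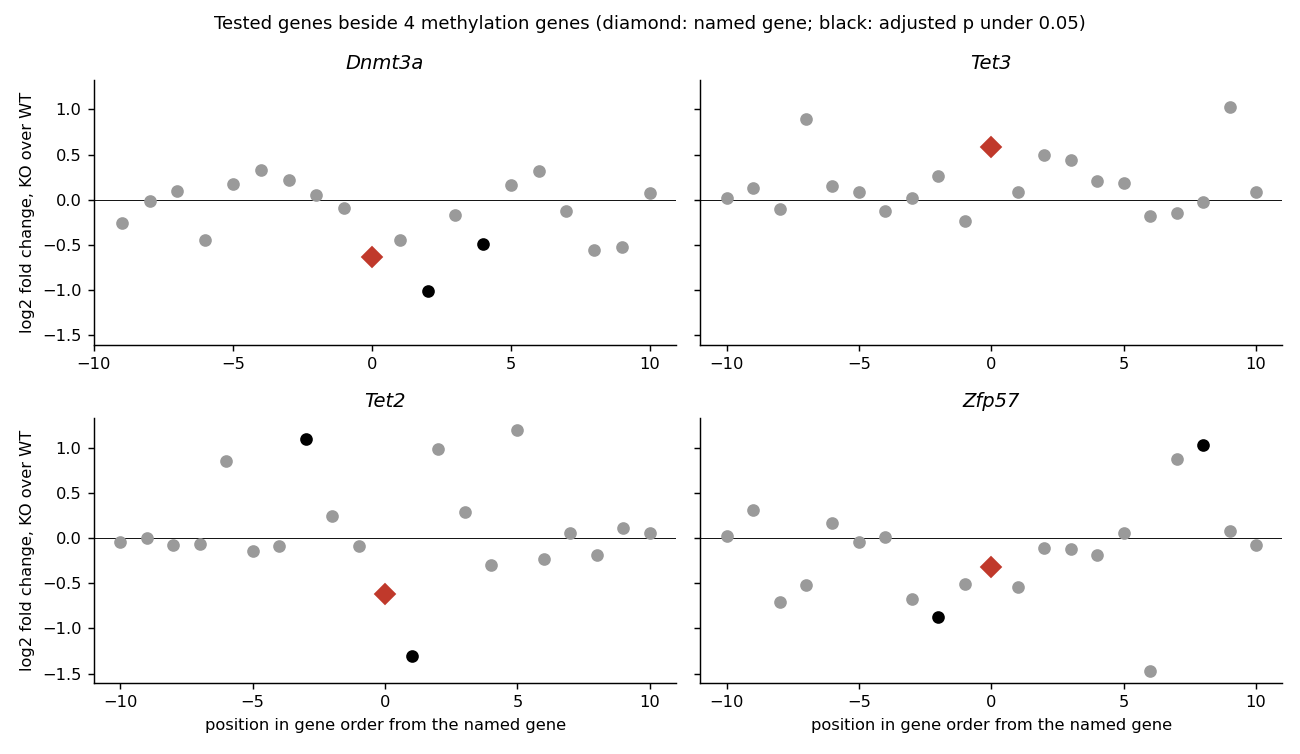
Log2 fold change of KO over WT (vertical axis) of tested genes in chromosomal order (horizontal axis, position from the named gene) around Dnmt3a, Tet3, Tet2 and Zfp57; diamonds mark the named gene and black points genes with an adjusted p under 0.05. The black point next to Tet2 is its antisense gene Gm42567 at -1.30.

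Among 13586 other tested genes of at least 2 CPM, those nearest to Dnmt3a in pattern over the 4 libraries were Nphs1os (distance 0.0461 between centred log2 CPM), Cabp1 (0.0479) and Osbpl10 (0.0649). Osbpl10 had 86.5 and 87.2 CPM in KO and 135 and 124 CPM in WT, and it fell (log2 fold change -0.58 ± 0.09, adjusted p = 0.00709). Over 4 libraries such likeness is a description only.

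In 6 lists of partner genes, 6 of 86 tested genes were called (4 higher, 2 lower), which is 6.98% beside 8.07% of all genes, with a median log2 fold change of -0.01. That share is near the background and is no result about the lists. Among 11 maintenance partners edgeR called 0, as did DESeq2 and limma voom, and 2 had an unadjusted edgeR p under 0.05. The most abundant were Usp7, a deubiquitinase that stabilises UHRF1 and DNMT1 (846 ± 35.7 CPM in KO, 884 ± 45.8 in WT), and the H3K9 methyltransferase gene Ehmt1 (488 ± 46.7 in KO, 441 ± 22.5 in WT). Of 9 tested genes tied to new methylation, Nsd2, an H3K36 methyltransferase, rose (104 and 114 CPM in KO, 80.1 and 82.8 in WT, log2 fold change 0.42 ± 0.09, adjusted p = 0.0247). Kdm2b, which binds unmethylated CpG islands, rose as well (0.44 ± 0.10, adjusted p = 0.0262). Neither was called without a WT library, where the highest adjusted p was 0.135 for Nsd2 and 0.262 for Kdm2b.

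Of 19 genes of demethylation and base excision repair, 2 were lower and none higher. Idh2, whose enzyme makes the 2-oxoglutarate that TET enzymes use, had 16.0 and 19.4 CPM in KO and 26.4 and 26.6 CPM in WT (-0.58 ± 0.13, adjusted p = 0.0328). The growth arrest gene Gadd45a had 29.5 and 39.2 CPM in KO and 52.0 and 50.7 CPM in WT (-0.57 ± 0.14, adjusted p = 0.0353). Idh2 missed the threshold in DESeq2 (adjusted p = 0.0526) and when WT replicate 2 was left out (adjusted p = 0.0986). Among 23 genes of TRIM28 silencing, only the H3K9 methyltransferase gene Suv39h1 was called. It rose, with 49.8 and 49.3 CPM in KO and 37.5 and 31.9 CPM in WT (0.52 ± 0.11, adjusted p = 0.0248), but not without WT replicate 2 (adjusted p = 0.206). Of 10 CpG readers, Mbd2, which binds methylated CpG and recruits the NuRD complex, rose (161 and 179 CPM in KO, 109 and 112 CPM in WT). Its log2 fold change was 0.62 ± 0.09 (adjusted p = 0.00672), and 0.54 to 0.69 without single libraries. For methyl donor supply, 0 of 14 tested genes were called in edgeR, and likewise 0 in limma voom and in DESeq2, with 1 unadjusted edgeR p under 0.05. Its most abundant were Mat2a (325 ± 1.19 CPM in KO, 350 ± 47.4 in WT), which makes S-adenosylmethionine, and Mthfd1 (311 ± 9.24 in KO, 293 ± 0.905 in WT).

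Prdm14 and Dppa3, which both oppose methylation, had negative values that were not called, and they are named after their values were seen. Prdm14, a repressor of the Dnmt3 genes in naive cells, had 7.20 and 12.9 CPM in KO and 16.3 and 20.1 CPM in WT (-0.84 ± 0.24, adjusted p = 0.0720). It was called by DESeq2 (adjusted p = 0.0350), and its log2 fold change was -1.35 to -0.51 without single libraries. Dppa3, which keeps UHRF1 from chromatin, was near the detection limit at 0.445 and 0.337 CPM in KO and 0.953 and 0.941 CPM in WT (-1.28 ± 0.45, adjusted p = 0.126).

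**Figure D5:**
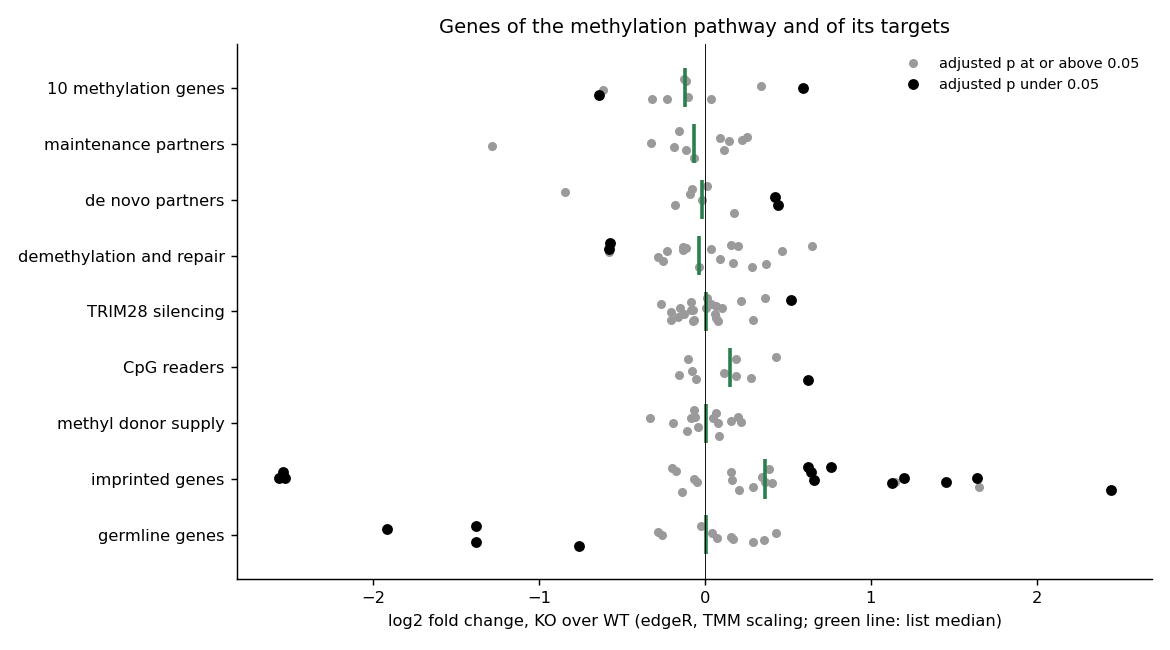
Log2 fold change of KO over WT (horizontal axis) of every tested gene in each list (rows), with black points for an adjusted p under 0.05, grey points for the rest and green lines for the list median. The 6 partner lists hold 6 black points between -0.58 and 0.62, while imprinted genes spread from -2.57 to 2.45.

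Genes known to be controlled by methylation were listed as well, with their changes known when the lists were chosen. Of 27 tested imprinted genes 9 rose and 3 fell, with a median of 0.36, beside 8.07% of all genes called. The largest were Meg3 (18.9 and 25.8 CPM in KO, 141 and 125 CPM in WT), Rian, Mirg and Plagl1 (28.3 and 22.4 CPM in KO, 5.50 and 3.92 CPM in WT). The 3 that fell, Meg3, Rian and Mirg (-2.57, -2.53 and -2.54), are RNAs of the Dlk1-Dio3 imprinted cluster and are not separate loci. Shared clusters among the 9 that rose were not examined, so these are not counted as separate loci either. Of 14 tested germline genes with methylated promoters 4 fell and none rose, Tuba3a, Dazl, Majin and Sycp3, with a median of 0.01. Dazl, an RNA-binding regulator of germ cells, had 2.67 and 4.60 CPM in KO and 10.0 and 9.31 CPM in WT (-1.38 ± 0.25, adjusted p = 0.0132). The meiotic genes Majin and Sycp3 lost their calls when WT replicate 2 was left out (adjusted p = 0.0772 for Majin and 0.139 for Sycp3). Methylation itself was not measured in these libraries.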

How the data were processed

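Values are raw counts per gene and, in the authors' deposited comparison table, counts divided by size factors (normalized signal values), shrunken log2 fold changes and p-values. Per the submitters' processing notes, HTSeq 0.6.1p1, STAR 2.5.3, DESeq2 1.16.1, cutadapt 1.10 and bcl2fastq 2.20.0.422 were used, with mm10. The annotation, strand setting and counted feature were not given in the sources used here. In the deposited counts, all 1326 genes of at least 500 bases lying in introns of a host gene on its strand (host total of at least 2000 counts) were at 0, against 401 of 949 on the opposite strand. Counts were therefore read as covering whole genes on their own strand, with shared stretches left out.

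Genes were kept by filterByExpr (minimum count 10) and fitted with edgeR 4.0.16 (R 4.3.3), KO over WT, with Benjamini-Hochberg adjusted p under 0.05 over all 16789 genes. The SE is the log2 fold change over the root of F. The spike-in fit used S. pombe totals times their TMM factor as library size. The biological coefficient of variation was 0.0952 with TMM and 0.363 with spike-in scaling. DESeq2 1.42.0, limma voom 3.58.1, other filters and scalings, a depth batch term and each library left out were alternatives. Fits were tested on simulated data. The 10 genes and all lists were chosen with earlier results of these data known. Named were the 10 genes, Supt3, overlapping genes, up to 4 called genes of a list (else the 2 most abundant) and the 3 genes nearest in pattern; single values of marker genes, Dppa3 and Prdm14 were chosen after their values were seen. Replicates were numbered in accession order. The counting error covers counting only, while the SE of a log2 fold change includes the spread between libraries.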

Additional observations from a re-analysis of the deposited data

How the results depend on the processing

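With TMM scaling, 1355 genes, 2 of the 10 methylation genes and 6 partner genes were called. These counts were 17, 0 and 0 with either S. pombe scaling (library sizes or size factors), 4307, 6 and 25 with the depth batch term, and 2460 and 4 for the first 2 counts without a low-count filter, where Tet2 (adjusted p = 1.06e-05) and Dnmt3l (adjusted p = 0.0355) joined. Leaving out single libraries gave 743 to 3058, 2 to 5 and 2 to 14. DESeq2, limma voom, RLE factors, library totals and a 1 CPM filter left the 2 calls at 2. With spike-in scaling 0 of the 10 were called in every fit, and 0 of the markers, imprinted or germline genes in the fits with all libraries. Supt3 passed with the depth batch term (-0.22) and without KO replicate 2, and ranged from -0.31 to -0.14 without single libraries.

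Among genes that were not called, signs turned as follows. Dnmt1 was -0.19 with spike-in library sizes and -0.20 with size factors, and -0.072 to 0.14 without single libraries. Uhrf1 ranged from -0.28 to 0.034 and Trim28 from -0.26 to 0.067. In the spike-in fit, leaving out libraries gave -0.53 to 0.088 for Dnmt1, -0.75 to 0.023 for Dnmt3b, -0.13 to 0.30 for Dnmt3l and -1.10 to 0.081 for Tet1. Both spike-in scalings turned Ehmt1 (-0.077 and -0.078), Mthfd1 (-0.16 in each) and the fibroblast marker Fbn1 (-0.087 and -0.088). With TMM scaling Ehmt1 was 0.15, Mthfd1 0.086, Fbn1 0.15 and Dnmt1 0.034. From TMM to spike-in library sizes the median of all tested genes moved by -0.24, which is larger in size than each of these values. Without single libraries Mat2a ranged from -0.25 to 0.036 and Fbn1 from -0.011 to 0.30. The causes were not tested. The labels give no replicate numbers to pair libraries by, and the depth batch term is the one paired fit, on pairs set by the counts. Where leaving one out left a single library in a genotype, its spread was taken from the other pair. The proteins of the 10 genes were not analysed here.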
